A study of Drosophila melanogaster with 19 samples.

Results

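Knockdown of Yb was examined in the small RNA bound to Piwi in ovarian somatic cells (OSC), a Drosophila melanogaster line derived from the somatic follicle cells of the ovary. The comparison set 1 library of Piwi-bound small RNA titled Yb KD (RNAi against Yb) against 1 library titled Control-KD (RNAi against EGFP, a jellyfish gene absent from the fly genome). Transcripts were kept where the mean of both libraries was at least 5 RPM (read counts scaled to the same total in every library), which left 4924 of the 12013 transcripts in the table. Both libraries came from immunoprecipitates described as made with an anti-Piwi antibody, although the antibody label of each names anti-c-Myc. The genotype label of the library titled Yb KD names EGFP RNAi, so it is called the Yb-labelled library here. Untreated OSC gave 1 more Piwi library, and RNA bound to the helicase Armitage (Armi) was read in separate libraries by iCLIP, which maps UV-crosslinked RNA, and by CLIPPARE, in which an adapter is joined to the 5′ ends of the crosslinked RNA.

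PIWI-interacting RNAs (piRNAs) are small RNAs that guide PIWI proteins to transposon transcripts. In OSC only Piwi is at work: long single-stranded precursors are gathered in Yb bodies beside mitochondria, unwound with the help of Armi, and cut by the endonuclease Zucchini (Zuc) into pieces that Piwi carries to the nucleus. The main precursor is the flamenco cluster, but a set of mRNAs, with traffic jam (tj) as the classic case, also feeds this pathway. Yb, a Tudor-domain protein encoded by fs(1)Yb, binds Armi and builds the Yb bodies.

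The Yb-labelled library had 853340 reads and the control KD library 812634 reads, as implied by the value of 1 read. One read was thus worth 1.17 RPM in the Yb-labelled library and 1.23 RPM in the control KD library. With 1 library per condition there was no replicate check, no test and no p-value. Intervals on ratios are exact conditional binomial intervals at 95% and cover counting error of reads only. PCR reads are not independent molecules, so the intervals can be too narrow even for that. In such bulk libraries a smaller number of contributing cells and fewer reads per cell cannot be told apart.

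The targeted gene was looked at first. Piwi-bound reads of fs(1)Yb stood at 44.5 RPM (38 reads) in the Yb-labelled library and 29.5 RPM (24 reads) in the control KD library, with 83.2 RPM in untreated cells. As deposited, the 2 knockdown values overlapped within counting error, at a ratio of 1.51 (0.881 to 2.63). Against the table median of 4.01-fold the whole interval was lower, and fs(1)Yb lay at −1.43 relative to that median. No conclusion on the conflicting labels is drawn from these few reads. Armi iCLIP, from other libraries, had 23.8 RPM of fs(1)Yb in Yb KD against 269 RPM in control KD.

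The clearest difference between the libraries was the share of Piwi-bound reads that came from transcripts of the table. These took 54.7% of all reads in the Yb-labelled library and 18.6% in the control KD library, a share 2.95-fold higher. Reads outside the table, whose identity is not given, made up the other 45.3% in the Yb-labelled library and 81.4% in the control KD library, a share 1.80-fold lower. RPM are shares of a library, not amounts. A gain of table reads thus cannot be told apart from a loss of the other reads, and higher or lower RPM is meant in this sense throughout. As deposited, 4607 of the 4924 transcripts (93.6%) had more RPM in the Yb-labelled library, and the median transcript was 4.01-fold higher, a log2 ratio of 2.00. Values of single transcripts are therefore given below also relative to this table median, on the log2 scale with 1 RPM added.

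Around that median the transcripts spread widely. The 25th and 75th percentiles were −0.71 and 0.59 relative to the median, the 5th and 95th were −2.24 and 1.52, and the ends were −6.91 and 4.31. At least 4-fold below the median lay 319 transcripts (6.48%), and at least 4-fold above it 100 (2.03%). At least 2-fold below lay 896 (18.2%) and at least 2-fold above 616 (12.5%). This split depends on the scale, because when each library was divided by its own table total 556 transcripts were at least 2-fold lower and 1312 at least 2-fold higher. The transcripts far above the median were thinly covered: 98 of the 100 had fewer than 10 reads in the control KD library and 70 had none. Those far below were better covered, with 232 of 319 at 10 or more reads in both libraries. Near the 5 RPM limit, the 278 transcripts of 5 to 6 RPM had a median of 0.21 and the 331 left out at 4 to 5 RPM a median of −0.16.

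The only other measure of how far 2 Piwi libraries of these cells differ is control KD against untreated. Over the same 4924 transcripts the log2 interquartile range was 1.30 for the Yb-labelled library over control KD and 1.42 for control KD over untreated. Among the 1601 with a mean of at least 50 RPM the order was the other way, at 1.29 and 1.26. More transcripts lay far out in the first comparison, with 8.51% of transcripts at least 4-fold from the median in either direction, against 5.06% for control KD over untreated. The 5 RPM filter used only the 2 libraries of the first comparison, which admits transcripts through a high value in the Yb-labelled library. Of the 100 transcripts at least 4-fold above there, 98 had fewer than 10 control KD reads. The 2 shares are thus not on an equal footing. Both comparisons use the control KD library, and their difference was not tested.

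**Figure D1:**
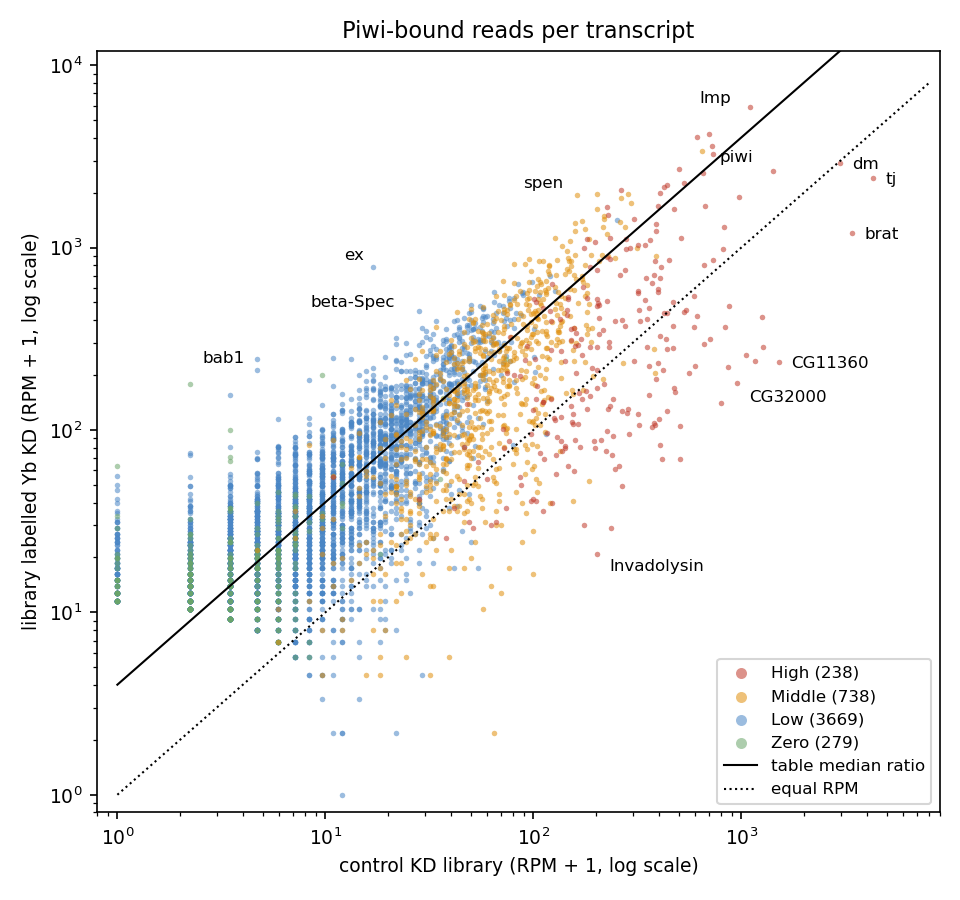
Piwi-bound reads of 4924 transcripts, with the library labelled Yb KD on the vertical and the control KD library on the horizontal axis, both as RPM + 1 on log scales, coloured by the authors' piRNA class. The solid line is the table median ratio, 4.01-fold, and the dotted line equal RPM. High-class transcripts such as tj, brat and CG11360 lie below the dotted line, while ex lies far above the solid one.

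The leading mRNA sources changed places. The 10 highest transcripts held 6.41% of all table reads in the Yb-labelled library (exact binomial interval 6.34 to 6.48%) and 10.5% in the control KD library (10.3 to 10.6%). The 50 highest held 17.8% in the Yb-labelled library and 23.8 to 24.2% (exact binomial interval) in control KD, and 32.7% in untreated cells. Reaching 50% of the reads in the table took 412 transcripts in the Yb-labelled library, 255 in control KD and 137 in untreated cells. Only 3 transcripts, Imp, dm and CycG, were among the 10 highest of both knockdown libraries, and 38 were among the 100 highest of both.

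Of the 10 transcripts highest in control KD, 8 had fewer RPM in the Yb-labelled library. The tj mRNA, which encodes a Maf transcription factor of somatic gonad cells, had 2402 RPM in the Yb-labelled library against 4303 RPM in control KD and 2958 RPM in untreated cells. Its log2 ratio relative to the table median was −2.85. The mRNA of brat, a translational repressor, had 1202 RPM in the Yb-labelled library against 3396 RPM in control KD (2.82-fold lower, 2.63 to 3.04). The polarity gene l(2)gl gave 417 RPM in the Yb-labelled library and 1255 RPM in control KD. The 5 largest differences in RPM with the Yb-labelled library lower were those of brat, tj, CG11360, CG10947 and Art4, a protein arginine methyltransferase gene. The dm mRNA, which encodes the fly Myc protein, differed by less than counting error at 2918 RPM against 2983 RPM (ratio 0.978, 0.925 to 1.03). The other 2 of the 10, Imp and CycG, had more RPM in the Yb-labelled library.

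A different group led the Yb-labelled library. Imp, which encodes an mRNA-binding protein, came first with 5864 RPM, against 1098 RPM in control KD (5.34-fold higher, 4.97 to 5.74). It was followed by chinmo, a BTB zinc-finger gene, at 4201 RPM against 700.2 RPM in control KD, and by Xrp1, a bZIP stress-response factor, at 4019 RPM against 612 RPM. Next came Fs(2)Ket, which encodes importin beta, at 3598 RPM against 719.9 RPM, and piwi itself, at 3364 RPM against 650 RPM. The remaining ones were unc-13, dm, CG11505, CycG and the DEAD-box helicase gene Rm62, at 3239 to 2557 RPM. Apart from dm and CycG, these 10 lay close to the table median, from −0.038 for Rm62 to 0.71 for Xrp1. All 10 had fewer RPM in untreated cells than in control KD, for instance 311 RPM for Imp, 108 RPM for Xrp1 and 92.7 RPM for piwi.

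The 12 smallest ratios among 1558 well-covered transcripts (mean of 50 RPM or more, and 10 or more reads in each library) belonged to 11 High-class transcripts and 1 of the Middle class. The metalloprotease gene Invadolysin had 19.9 RPM (17 reads) in the Yb-labelled library, against 202 RPM (164 reads) in control KD and 164 RPM in untreated cells, at −5.28 relative to the table median. CG13865 had 28.1 RPM in the Yb-labelled library and 235 RPM in control KD, and CG3164 had 68.0 RPM against 506 RPM. CG11360, on chromosome 4, had 236 RPM in the Yb-labelled library against 1514 RPM in control KD (6.43-fold lower, 5.53 to 7.50). All 12 were lower also as deposited, by 4.93-fold for Art4 up to 10.1-fold for Invadolysin.

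Pis, the phosphatidylinositol synthase gene, had 29.3 RPM in the Yb-labelled library and 175 RPM in control KD. Patr-1, which encodes an activator of mRNA decapping, had 139 RPM against 800 RPM. Tif-IA, an initiation factor of RNA polymerase I, had 82.0 RPM against 405 RPM. Art4 had 237 RPM in the Yb-labelled library and 1168 RPM in control KD. CG8701, CG41099, CG9257 and CG32000 completed the group at 15.2 to 179 RPM in the Yb-labelled library. CG32000 had 179 RPM in the Yb-labelled library, 950.0 RPM in control KD and 2275 RPM in untreated cells.

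At the other end, the 12 largest ratios in the same set came from 11 Low-class transcripts and 1 of the Middle class. The expanded gene (ex), an upstream member of the Hippo growth-control pathway, had 785 RPM (670 reads) in the Yb-labelled library, against 16.0 RPM (13 reads) in control KD and 0.559 RPM, a single read, in untreated cells. It stood 3.53 above the table median, and no other transcript of the set exceeded 2.19. The mRNA of ribosomal protein RpL13A had 243 RPM against 12.3 RPM in control KD, and that of beta-Spec, the membrane-skeleton spectrin, 446 RPM against 27.1 RPM (16.5-fold higher, 10.7 to 26.6). The ecdysone-induced factor Eip93F had 320 RPM in the Yb-labelled library and 20.9 RPM in control KD, and tai, a coactivator of the ecdysone receptor, 249.6 RPM and 18.5 RPM. The gene spen, which encodes a large RNA-binding corepressor, had 1954 RPM (1667 reads) in the Yb-labelled library and 161 RPM (131 reads) in control KD, so its 12.1-fold difference (10.1 to 14.6) rested on the most reads. Spn, the phosphatase scaffold spinophilin, had 363 RPM and 28.3 RPM, and CG8949, CG8677, CG4168, CG5098 and CG4911 had 199 to 299 RPM in the Yb-labelled library. All but spen had 12.3 to 28.3 RPM in control KD. They thus reached the mean of 50 RPM only through the Yb-labelled library, and were picked as the largest ratios.

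Large ratios were also seen with fewer than 10 control reads, and the 5 given here were picked out after their values were seen. CG34411 had 177 RPM (151 reads) in the Yb-labelled library and 1.23 RPM (1 read) in control KD, a ratio of 144 with an interval of 25.4 to 5717. CHKov1 had 244 RPM against 3.69 RPM (3 reads), bab1, a BTB factor gene, 213 RPM against 3.69 RPM (3 reads), and SP2353 155 RPM against 2.46 RPM (2 reads). The potassium channel gene Shal had 98.4 RPM in the Yb-labelled library and 2.46 RPM in control KD. These sizes are poorly fixed by so few control reads. All 5 were picked for their large ratios and passed the 5 RPM filter through the Yb-labelled library. Their intervals therefore support nothing about a position above the table median.

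**Figure D2:**
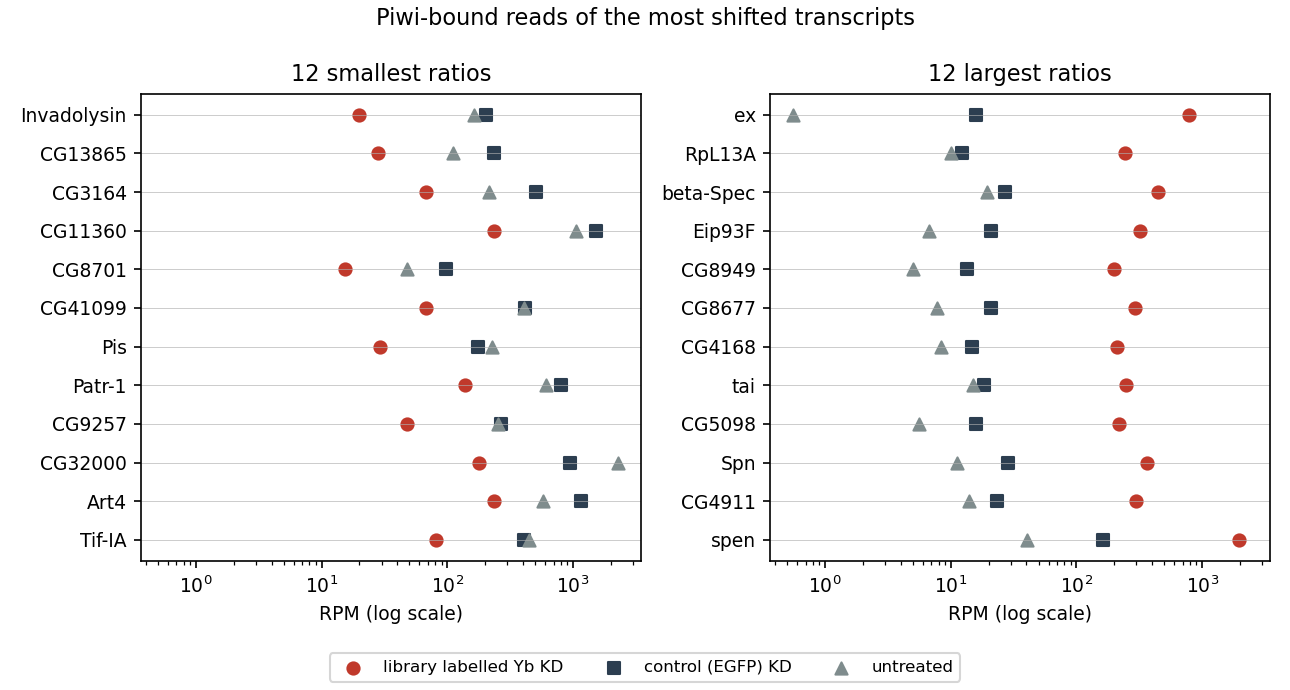
RPM of the 12 smallest (left) and 12 largest ratios (right) among 1558 well-covered transcripts, on a log scale, in the library labelled Yb KD (circles), control KD (squares) and untreated cells (triangles), 1 library each. On the left every circle lies below both other marks, and on the right every circle lies above them.

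The relation to the normal piRNA level was read from the untreated library, which is no part of the ratio. The 2502 transcripts under 5 RPM in untreated cells had a median of 0.20 relative to the table median, and the 1446 of 5 to 20 RPM a median of 0.081. The lowest range had a median of 21.1 RPM in the Yb-labelled library and 4.92 RPM in control KD, so many of its members passed the 5 RPM filter through the Yb-labelled library, and its positive value supports nothing. Without the filter the Zero class, which has no reads in untreated cells, lay at −0.62. With 1 RPM added, that is the value of 1 read in the Yb-labelled library and none in control KD. It is thus no sign of a lower level. From the range of 5 to 20 RPM on, the median dropped with each step, to −0.49 for the 738 transcripts of 20 to 100 RPM, −1.50 for the 162 of 100 to 300 RPM and −2.30 for the 59 of 300 to 1000 RPM. All 17 transcripts of 1000 RPM or more lay below the table median, at a median of −3.19. The share at least 4-fold below the median was 1.44% in the lowest of these ranges, 14.2% at 20 to 100 RPM, 38.9% at 100 to 300 RPM and 57.6% at 300 to 1000 RPM. Ranking by the Armi iCLIP signal of untreated cells gave the same order, from 0.13 for 2071 transcripts under 5 RPM to −2.33 for 88 transcripts of 300 RPM or more.

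**Figure D3:**
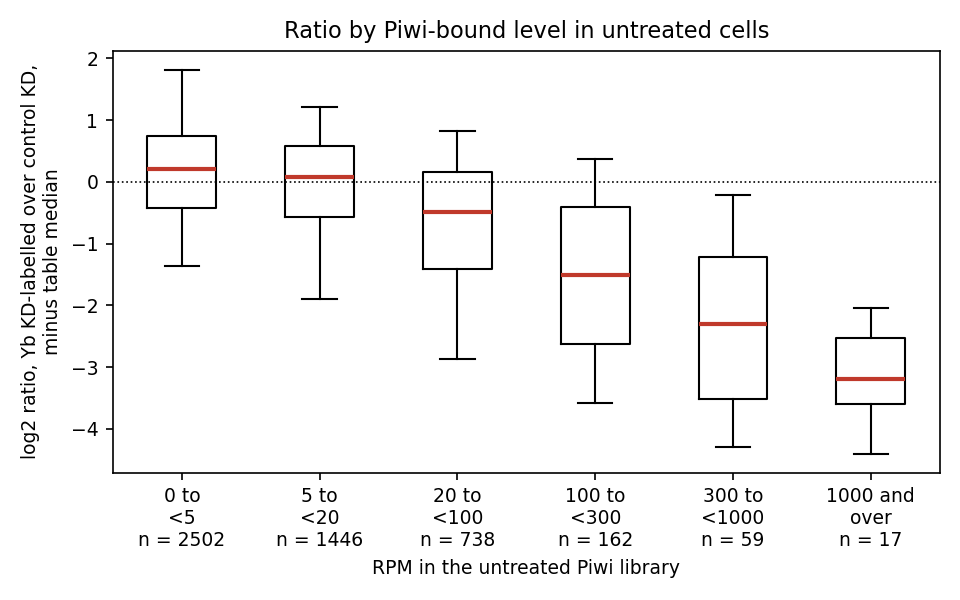
Log2 ratio of the library labelled Yb KD over control KD, minus the table median, for transcripts grouped by RPM in the untreated Piwi library. Red lines are medians, boxes the 25th to 75th percentiles and whiskers the 5th and 95th percentiles. The medians go from 0.20 under 5 RPM to −3.19 at 1000 RPM and over.

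The authors' classes High, Middle, Low and Zero follow the same untreated library. High-class transcripts had 23.2% of table reads in the Yb-labelled library (23.1 to 23.4%), 44.9% in control KD (44.7 to 45.2%) and 60.2% in untreated cells. Low-class transcripts had 41.7% in the Yb-labelled library, 25.5% in control KD and 16.1% in untreated cells. In summed RPM every class was higher in the Yb-labelled library, by 1.52-fold for High, 3.46-fold for Middle, 4.82-fold for Low and 4.45-fold for Zero. Of the summed RPM that the table held beyond control KD, 12.1% was High, 36.1% Middle, 50.01% Low and 1.81% Zero. Of the 317 transcripts that were lower as deposited, 112 were High, 104 Middle, 98 Low and 3 Zero.

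Members of the High class were far from alike. Their median was −1.82, the 25th and 75th percentiles were −2.88 and −0.77, and 113 of 238 were at least 4-fold below the table median, while none was 2-fold above it. LanA, which encodes a laminin chain of the basement membrane, had the highest ratio of the class (chosen after its value was seen), with 2055 RPM in the Yb-labelled library and 262 RPM in control KD, 0.96 above the table median. The corepressor gene Smr (0.61) also lay above it. For comparison, the High class lay at −0.87 and the Middle class at −0.33 in control KD over untreated relative to that comparison's own median, where the class was cut from the untreated library itself. High-class transcripts thus lay below the median in both comparisons, and the difference between the 2 was not tested.

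Armi-bound RNA of the same transcripts was read in libraries that share no sample with the Piwi libraries. Of the 319 transcripts at least 4-fold below the median in Piwi small RNA, 273 had a mean of at least 5 RPM in the knockdown iCLIP, and 270 of these lay below the median of that table as well. Their median was −2.70, and 259 (94.9%) were at least 2-fold below, where 19.6% of the 3856 transcripts measured in both tables were. The 3 exceptions, Dsor1, Got1 and CG9248, named after their values were seen, had 5 to 31 reads in each Piwi library. Of the 100 transcripts at least 4-fold above, 66 were measured in iCLIP, 55 of them above its median and 29 at least 2-fold above. These counts support nothing, since 98 of the 100 had under 10 control reads and so passed the filter through the Yb-labelled library, and the iCLIP filter likewise admits transcripts through its Yb KD column (CG34411 had 30.1 RPM in Yb KD and 0.575 RPM in control KD). These iCLIP values are 1 column per condition made from 2 libraries each.

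Among the transcripts named above, Armi iCLIP followed Piwi closely at the low end. All 12 smallest ratios lay below the iCLIP median, at −3.08 for Tif-IA to −5.56 for Invadolysin. Of the 12 largest, 11 lay above it, led by ex at 4.72 (260 RPM in Yb KD, 2.30 RPM in control KD), and CG4911 stood at −0.049. This count supports nothing, since all 12 but spen passed the 50 RPM limit through the Yb-labelled library. The piwi mRNA differed between assays: it was 0.37 above the median in Piwi small RNA and at −1.07 in Armi iCLIP.

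The 5′ ends of Armi-bound RNA after knockdown of Zuc (2 CLIPPARE libraries against 2 control KD libraries) showed the same sides. Of 276 measured transcripts from the 4-fold low group, 268 lay below the CLIPPARE median and 142 (51.4%) at least 2-fold below, against 6.49% of all 3437. Of 43 measured transcripts from the 4-fold high group, 34 lay above it and 10 at least 2-fold above, with the same limit on how they were selected. The 12 largest ratios stood from 0.018 for RpL13A to 4.58 for ex above that median, with spen at 0.42 and Eip93F at 2.44. Apart from spen, these 12 also carry that limit on selection. Outside the 12, bab1 at 3.15 and CHKov1 at 3.39 were picked as high values. Each had 3 control KD reads in Piwi small RNA. The adhesion gene Fas2 went opposite ways: it was at −2.07 in Piwi small RNA (18.7 RPM in the Yb-labelled library, 19.7 RPM in control KD) and at −2.38 in Armi iCLIP, but at 2.30 in CLIPPARE after Zuc KD.

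**Figure D4:**
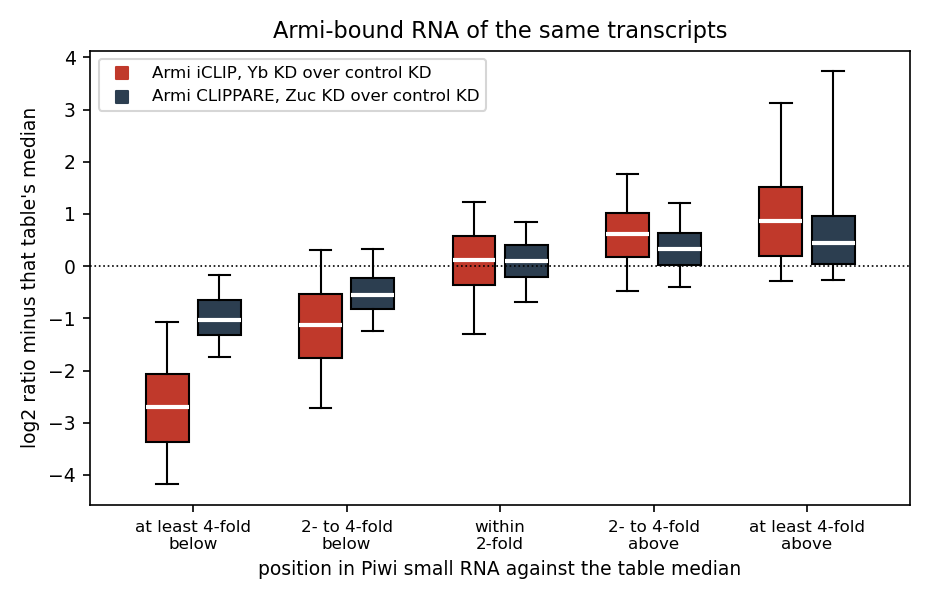
Log2 ratios of Armi iCLIP (Yb KD over control KD, red) and Armi CLIPPARE (Zuc KD over control KD, dark) relative to each table's median, for transcripts grouped by their position in Piwi small RNA. White lines are medians, boxes the 25th to 75th percentiles, whiskers the 5th and 95th percentiles. In the 4-fold low group the medians are −2.70 for iCLIP and −1.03 for CLIPPARE, and in the 4-fold high group 0.86 and 0.45.

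For the gene lists that follow, the shares over all 4924 transcripts were 12.5% at least 2-fold above the table median and 18.2% at least 2-fold below, and 70.2% of High-class transcripts were at least 2-fold below. A list share near these says nothing particular about the list. List members with few control KD reads passed the 5 RPM filter through the Yb-labelled library, so their place above the table median supports nothing. Of 24 genes of the piRNA pathway looked for 16 were found, and Gasz, vret, SoYb and BoYb were among those missing. The part that was measured sat near the middle. Of 14 measured members 8 lay above the table median and 6 below, 2 of them at least 2-fold above and 2 at least 2-fold below, with a list median of 0.15, which turned to −0.18 at a mean of at least 20 RPM and to −0.076 with the untreated library as reference. The armi mRNA had 866 RPM in the Yb-labelled library and 234 RPM in control KD, at −0.12 relative to the table median. Those of the heterochromatin factors wde (98.4 RPM against 11.1 RPM) and CG9754, which encodes Panoramix (24.6 RPM against 0 reads, at least 6.67-fold higher when 3 reads are set as the floor of that library), were the highest. CG9754 passed the 5 RPM filter only through the Yb-labelled library. The 2 lowest were zuc, with 5 reads in the Yb-labelled library and 4 in control KD, and fs(1)Yb.

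Of 30 RNA-binding and mRNA-decay genes 7 (23.3%) were at least 2-fold below the median and 4 (13.3%) at least 2-fold above, close to the 18.2% and 12.5% of all transcripts. All 7 low ones were among the 11 High-class members, near the 70.2% of that class: Patr-1, brat, mub (371.5 RPM in the Yb-labelled library, 466 RPM in control KD), orb2, unk, mei-P26 and tral. The 4 High-class members that were not low, AGO1, Hrb27C, Imp and sqd, lay 0.27 to 0.73 above it. Hrb27C, an hnRNP gene, had 2002 RPM in the Yb-labelled library and 406 RPM in control KD, and sqd, another hnRNP gene, 1514 RPM and 226 RPM. Not1, the scaffold of the deadenylase complex, had 1404 RPM and 169.8 RPM.

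Transcription factors and surface markers of follicle and somatic gonad cells were on both sides. Of 11 measured genes 8 were above the median, 3 of them at least 2-fold, and 3 below it, namely tj at −2.85, hh at −0.56 and eya at −0.087. Only tj was at least 2-fold below. The zinc-finger gene zfh1 had 1661 RPM in the Yb-labelled library and 224 RPM in control KD, and the cell-cycle phosphatase gene stg 1087 RPM and 149 RPM. The paralogous BTB factor genes bab1 and bab2 had 213 RPM against 3.69 RPM (3 reads) and 271 RPM against 28.3 RPM. The homeobox gene ct had 21.1 RPM against 0 reads. Both bab1 and ct passed the 5 RPM filter only through the Yb-labelled library.

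In the Hippo pathway 12 of 19 measured members lay above the median, 2 of them (ex and the kinase gene dco) at least 2-fold, and jub and Rassf at least 2-fold below, or 10.5% each way against 12.5% above and 18.2% below over all transcripts. The transcription partner gene sd had 343 RPM in the Yb-labelled library and 46.8 RPM in control KD, and mask 1269 RPM and 176 RPM. Of 15 ecdysone-response genes 4 were at least 2-fold above, among them Hr4 with 28.1 RPM against 0 reads. Hr4 thus passed the 5 RPM filter only through the Yb-labelled library. Eip63E, a High-class cyclin-dependent kinase gene, was at −3.41 (224 RPM against 596 RPM). Of 20 Myc, insulin and growth genes 14 lay above the median, while Tif-IA was at −4.29 and dm at −2.04. Mnt, which encodes the antagonist of Myc, was the highest of that list at 1.99, with 172 RPM in the Yb-labelled library and 9.84 RPM in control KD. No gene of 15 in the Notch pathway was 2-fold above, and Su(dx), a ubiquitin ligase gene, was at −1.35.

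Among 28 adhesion and polarity genes the median was 0.059 (−0.067 with 0.1 RPM added and −0.017 at a mean of at least 20 RPM), with 7 at least 2-fold below and 4 at least 2-fold above. The 3 High-class members l(2)gl, par-6 and sdt were all among the low ones, as were 70.2% of that class, and sdt turned to 0.13 with the untreated library as reference. The focal-adhesion adaptor gene p130CAS (396 RPM in the Yb-labelled library, 40.6 RPM in control KD) and the tight-junction scaffold gene pyd (1363 RPM and 157.5 RPM) were among the high ones. Of 22 actin, tubulin and spectrin genes 19 lay above the median, at 0.67 in the middle. Act5C had 1877 RPM in the Yb-labelled library and 263 RPM in control KD, and shot, a spectraplakin gene, 809 RPM and 89.8 RPM. Of 28 chromatin regulators 24 lay above it and 7 at least 2-fold so, led by the Brahma-complex gene mor (114 RPM against 4.92 RPM, 4 reads). Nipped-A, the one regulator at least 2-fold below, had 423 RPM in the Yb-labelled library, 609 RPM in control KD and 1393 RPM in untreated cells.

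Most housekeeping lists lay above the median. Cytosolic ribosomal protein genes had a median of 0.31, with 58 of 76 above, 10 (13.2%, against 12.5% of all transcripts) at least 2-fold above and 1 at least 2-fold below. With the untreated library as reference the median of these genes was 0.025. RpL3, the most abundant of them, had 705 RPM in the Yb-labelled library and 155 RPM in control KD. Translation factors lay at 0.51 (13 of 14 above), with pAbp, the poly(A)-binding protein gene, at 907 RPM against 157.5 RPM. Heat shock and chaperone genes lay at 0.57 (13 of 15 above), and at 1.64 with the untreated library as reference, with Hsp83 at 1764 RPM against 295 RPM, while the High-class heat shock factor gene Hsf was at −2.04. Proteasome subunits lay at 0.40 (18 of 20 above, 6 at least 2-fold) and nonsense-mediated decay factors at 0.23 (4 of 6). The 26 proteasome genes found summed to 933 RPM in the Yb-labelled library and only 138 RPM in control KD. Members such as Prosbeta1 and eIF4AIII, with 1 control KD read each, passed the 5 RPM filter only through the Yb-labelled library. These counts above the median are thus shaped by the filter. Mitochondrial ribosomal protein genes lay at −0.057, with 17 of 34 on either side, and turned to 0.39 when scaled by table totals and 0.090 with 0.1 RPM added, and lay at −0.83 with the untreated library as reference. Of the secretory coat list only 3 genes were found, and the ER exit site gene Sec16 was at −3.16 (295 RPM in the Yb-labelled library, 658 RPM in control KD).

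Because the classes differ in their medians, each member was also set against the median of its own class. On that scale the medians of 17 of the 19 lists were above 0, so being above 0 is not particular to any of them. The highest was that of follicle and somatic gonad genes (1.70), and the lowest were those of mitochondrial ribosomal proteins (−0.21) and the secretory list (−0.12). The follicle list had 11 measured genes, among them bab1 and ct with few or no control KD reads. Its summed share of table reads was lower in the Yb-labelled library (1.95%) than in control KD (3.00%). The germline markers changed sides, from −0.52 relative to the table median to 0.30, as did the secretory list.

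**Figure D5:**
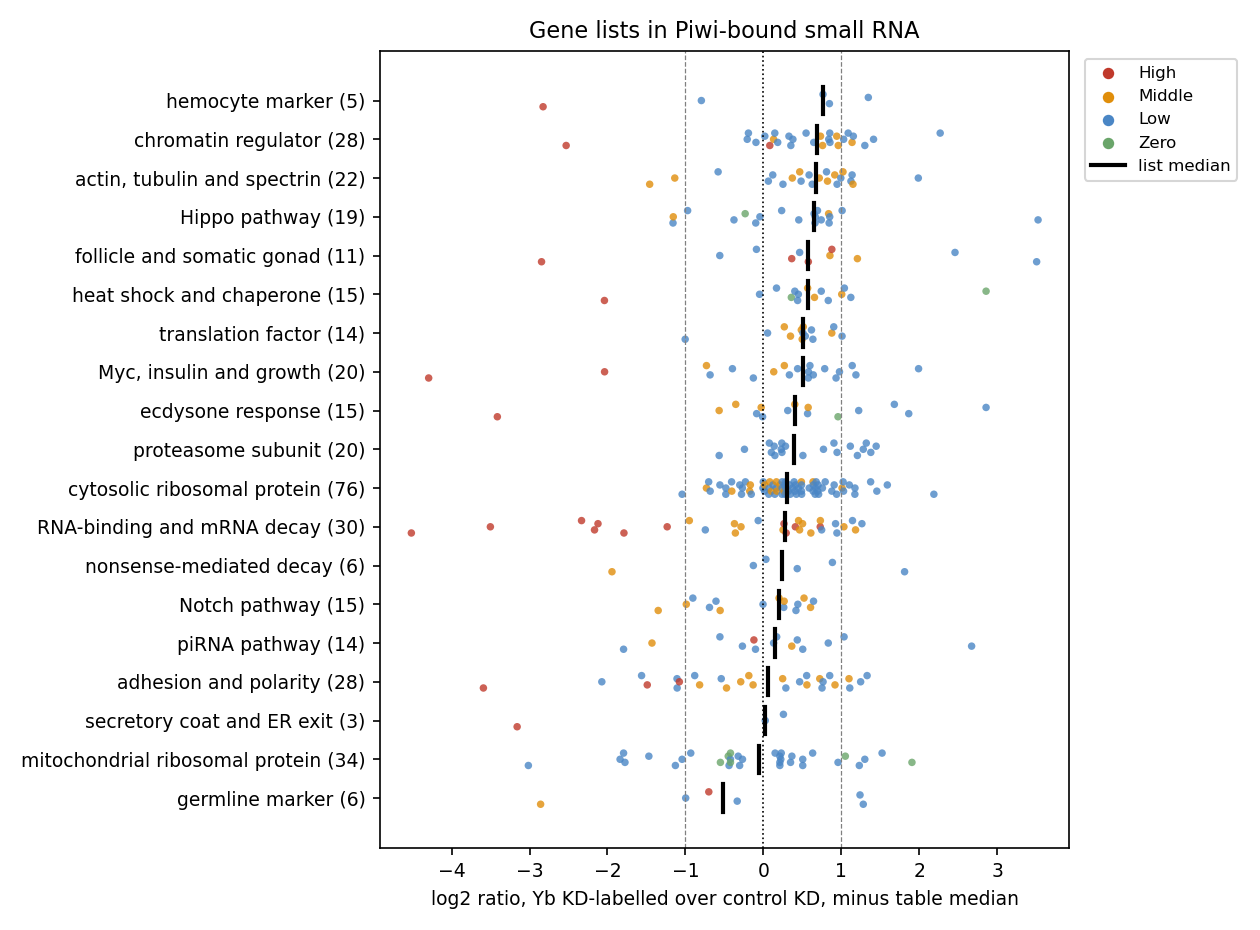
Each point is a measured gene of a list, at its log2 ratio of the library labelled Yb KD over control KD minus the table median, coloured by piRNA class, and black bars are list medians. Numbers in brackets are measured genes, and dashed lines mark 2-fold. High-class members (red) such as tj, brat and l(2)gl form most of the far left.

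Some markers of other cells gave Piwi-bound RNA. For scale, the median tested transcript had 38.7 RPM in the Yb-labelled library and 9.84 RPM in control KD. Germline markers summed to 466 RPM over 14 genes in the Yb-labelled library and 217 RPM in control KD, and osk and AGO3 had 0 reads in both. Only 6 of them reached 5 RPM, and spn-E made up 199 RPM of the sum in the Yb-labelled library. The germline markers vas and qin were looked for but not found. Hemocyte markers summed to 489 RPM over 10 genes in the Yb-labelled library and 116 RPM in control KD, with 5 of the 10 (Hml, He, lz, eater and gcm) at 0 reads in both. The genes ush (236 RPM against 22.2 RPM) and crq (28.1 RPM against 50.5 RPM) of that list lay on opposite sides of the median. The part of other cells in the results was not tested.

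Position and size of the gene were compared using the loci in the authors' tables. Medians of the large arms lay between −0.020 for 2L and 0.056 for X. Over all tested transcripts 18.2% were at least 2-fold below the table median and 12.5% at least 2-fold above. The 43 transcripts of chromosome 4 had a median of −0.88, with 19 at least 2-fold below and 2 at least 2-fold above. The 25 on unplaced or heterochromatic scaffolds had a median of −0.95, with 12 at least 2-fold below and none 2-fold above. Of these, 7 on chromosome 4 and 3 on the scaffolds were High-class. By length of the locus, 5 groups of nearly equal number had medians between −0.041 and 0.078, the shortest group (0.307 to 1.71 kb) at −0.019 and the longest (9.16 to 396 kb) at 0.078.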

How the data were processed

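Per the labels, Piwi-bound RNA of OSC was recovered by immunoprecipitation and cloned as small RNA. Per the submitters' processing notes, cutadapt and STAR were used with the dm6 build; versions, the counting step, strand and reads with several hits are not given in the sources used here. Reads shared by overlapping or near-identical genes remain uncertain. The authors deposited RPM for each FlyBase transcript. Dividing a column by its smallest step gave whole reads for 100% of values (within 0.1 of a read); with 1 library per condition no count test could be run on them.

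After 107 repeated lines were dropped, 12013 transcripts remained. Symbols came from the deposited iCLIP table, and list symbols were matched to it directly or through the reference table (Release 6 plus ISO1 MT), 472 of 516 found. Ratios are log2 of RPM plus 1, where both libraries averaged 5 RPM or more, minus their median. Loci follow another assembly than dm6, so no positions are given. The Myc-Armi iCLIP was not used.

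Named were, at a mean of at least 50 RPM and 10 reads in both libraries, the 12 largest and 12 smallest ratios; the 10 highest in each library; the 5 largest RPM differences each way; pathway genes and tj; and in each list up to 4 members of highest RPM with the highest and lowest ratio. Other members are named only to complete counts or as examples chosen after their values were seen. Members and lists were chosen with earlier results of these data known. The ratio and centring were tested on simulated reads. Figures were drawn with matplotlib 3.10.9, and values computed in Python 3.11.15 (scipy 1.17.1, pandas 2.3.3, numpy 2.4.6).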

Additional observations from a re-analysis of the deposited data

How the results depend on the processing

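The direction of the High, Middle and Low medians held under the 6 other settings below for which they were computed, but sizes differed. Main counts were 616 and 896 transcripts at least 2-fold above and below the table median, and 100 and 319 at least 4-fold above and below. With a pseudocount of 0.1 RPM 226 were 4-fold above, the table median was 2.14 and the Zero class median 0.34. With 5 RPM 17 and 181 were 4-fold above and below, the table median was 1.58, and High, Middle, Low and Zero medians were −1.40, −0.15, 0.069 and −0.18, so the Zero class changed sides. Without a filter the 4 counts were 1205, 1636, 158 and 777, the table median 1.74, and High, Middle and Zero medians −1.55, −0.23 and −0.62, again with the Zero class on the other side. That Zero median is the value of 1 read in the Yb-labelled library and none in control KD, with 1 RPM added. At a mean of at least 20 RPM 246 and 545 were 2-fold above and below and 27 were 4-fold above, the table median was 2.08 and Low and Zero medians were 0.22 and 0.36; fewer transcripts are counted there. Scaled by table totals, the 4 counts were 1312, 556, 219 and 190, the median ratio was 0.45 and the 4 class medians −1.37, −0.044, 0.60 and 0.66. With the untreated library in place of control KD 199 and 583 were 4-fold above and below, the table median was 2.94, the 4 class medians −3.02, −0.99, 0.10 and 1.18, and the share of the 50 highest differed by −14.9 percentage points in place of −6.22. In a filter added after seeing the data (a mean of at least 50 RPM and 10 reads in both libraries) the 4 counts were 112, 306, 2 and 150.

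Of 128 named transcripts, 69 lay at least 2-fold from the median. None of the 69 changed sides except with the untreated library as reference, where sdt went to 0.13, eIF-2alpha to 0.23 and mRpL37 to −0.21, and the cause was not tested. No paired analysis was possible because each condition has 1 Piwi library and its column carries no replicate number. Depth limits the high end most: 2677 of the 4924 transcripts had fewer than 10 reads in control KD.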
